A study of Mus musculus with 5 samples.

Results

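Serpins are protease inhibitors that trap their target by offering it an exposed loop. When the protease cuts the loop, the serpin snaps into a new fold and the protease stays covalently bound and inactive. Some family members are secreted and act on blood or matrix proteases, those of clade B act inside the cell on proteases that leak from granules and lysosomes, and a few have lost the inhibitory function and work as ligands or chaperones. In blood cell precursors the clade B serpins are best known for restraining the proteases of neutrophil granules and of cytotoxic granules.

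The transcripts of 9 serpin genes were looked up by symbol in a table of 11352 genes, and 7 of them are listed there: Serpinf1, Serpina3f, Serpina3g, Serpinb1a, Serpinb6a, Serpinb9 and Serpine2. Serping1, which encodes the complement C1 inhibitor, and Serpinh1, a chaperone of collagen, are not among the listed genes and were not analysed here. The other listed symbols that start with Serpin are Serpinb6b, Serpinb8, Serpinb10 and Serpini1, which brings the family to 11. Every listed gene exceeds 1 in 3 or more of the 5 libraries, so a serpin that does so only in the Cux1-low libraries could not be listed, while the NrasG12D libraries alone were enough. The members were chosen by symbol with the log2 fold changes of this comparison already known, so their values are given as a description.

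The libraries were made from mouse haematopoietic stem and progenitor cells (HSPCs), sorted for KIT and SCA1 and against lineage markers and CD135. There were 3 libraries from Cux1-knockdown mice that also carried NrasG12D (Cux1-low;NrasG12D, here NrasG12D libraries) and 2 from mice with Cux1 knockdown alone (Cux1-low). Both groups thus carry the knockdown of Cux1, which encodes a homeodomain transcription factor, and the mice of both had been given pI:C, a double-stranded RNA that induces interferon, together with doxycycline for 4 weeks. NrasG12D encodes a constitutively active NRAS GTPase, and the comparison asks what it adds on top of the knockdown. The labels give no ages, no Cre driver and no knockdown construct, and leave unsaid whether animals were pooled or shared between libraries. The p-values therefore reflect only the spread between these libraries, which may be technical. Normal cells and cells with NrasG12D alone were not analysed here.

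All values are normalized CPM, which are reads scaled to a common library size by the authors. Over the listed genes the libraries held 16489711 to 20262498 reads, and 1 read was worth 0.0481 to 0.0608 normalized CPM. NrasG12D replicate 3 stood apart: 128 of 11352 genes passed limma's test over all 5 libraries, and 4243 passed without it. Of 19 measured markers of haematopoietic stem cells (HSCs), 18 had a negative log2 fold change, with a median of -1.17, and 15 lay lower in every NrasG12D library than in any Cux1-low library, as did 27.0% of all genes. Their summed level was 1991 to 3924 normalized CPM in NrasG12D libraries, with the highest value in replicate 3, against 5208 to 5230 in Cux1-low libraries. Of 12 erythroid markers, 12 had a positive log2 fold change, with sums of 6030 to 11885 against 4954 to 5382. Of 13 granulocyte and monocyte markers, 9 had a positive and 4 a negative log2 fold change, with sums of 8795 to 20336 against 8174 to 11402. Most of each sum came from 1 gene, Mpo (16346, 10968 and 6917 against 6253 and 8799), so the sums say little about the other markers. The 8 B cell markers all had a positive log2 fold change, with sums of 60.5 to 551 against 58.1 to 79.4. Of 16 stromal markers 4 are listed, with sums of 124 to 221 against 217 to 250, and Col1a1, Pdgfra and Dcn are not among them. Of 15 macrophage markers 5 are listed, with sums of 46.0 to 64.5 against 57.1 to 60.4, and C1qa and Mrc1 are not among them. Megakaryocyte markers (14 of 16 listed) summed to 712 to 1400 against 1578 to 1608, and endothelial markers (7 of 14) to 254 to 291 against 366 to 395. T and NK cell markers (6 of 15) summed to 289 to 409.5 against 281 to 313, and markers of mast cells, eosinophils and basophils (9 of 13) to 1027 to 1368 against 1295 to 1544. The cell markers that passed limma's test were Ndn, Epx and Prg2, all lower. The part of these markers in the serpin values was not tested, and in bulk libraries fewer cells of a type and less RNA per cell cannot be told apart.

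Serpina3f and Serpina3g belong to a mouse cluster of closely related copies of the antichymotrypsin gene on chromosome 12. It was therefore first measured how far their reads could be told apart. Their genes lie side by side on mm10 (GENCODE M21): Serpina3f at chr12:104214544-104221129 and Serpina3g at chr12:104236245-104241939, both on the plus strand. The annotated coding sequence used was 1335 bases long for Serpina3f and 744 for Serpina3g. Over the 759 aligned columns, which cover only a part of Serpina3f, 85.6% of bases were identical. The first pair of sequences below is the 75-base stretch in which the copies differ most, with 21 differing bases shown in capitals, and the last line is the longest run that both share without a difference, 56 bases.
Serpina3f, coding bases 1215 to 1289: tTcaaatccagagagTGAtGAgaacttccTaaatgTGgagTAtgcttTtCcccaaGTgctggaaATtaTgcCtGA
Serpina3g, coding bases 636 to 710: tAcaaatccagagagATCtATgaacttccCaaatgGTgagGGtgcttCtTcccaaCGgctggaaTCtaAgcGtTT
Serpina3f and Serpina3g, shared: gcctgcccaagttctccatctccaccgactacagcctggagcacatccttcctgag

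Of all stretches of 50 bases in the transcripts of Serpina3f, 10.6% also occur in transcripts of another gene, 6.03% in those of Serpina3g. For Serpina3g this share was 15.5%, with 8.89% in Serpina3h and 6.84% in Serpina3i. Most of either transcript can therefore be assigned by exact matches of that length, while reads with mismatches, a read length that the sources used here do not give, and the handling of reads with several matches leave the division between copies uncertain. Among the other members the share was 2.81% for Serpinb1a, which overlaps in sequence with Serpinb1b and Serpinb1c, 0.751% for Serpinb6a, 0.378% for Serpinb9, 0.0728% for Serpine2 and 0% for Serpinf1. The exons of Serpinb6a overlap those of 3 genes on the opposite strand, among them Nqo2 and Ripk1, and whether reads were counted by strand is not given, so its reads cannot be told apart from theirs there. The exons of Serpinb10 overlap those of Serpinb2 on the same strand.

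**Figure D1:**
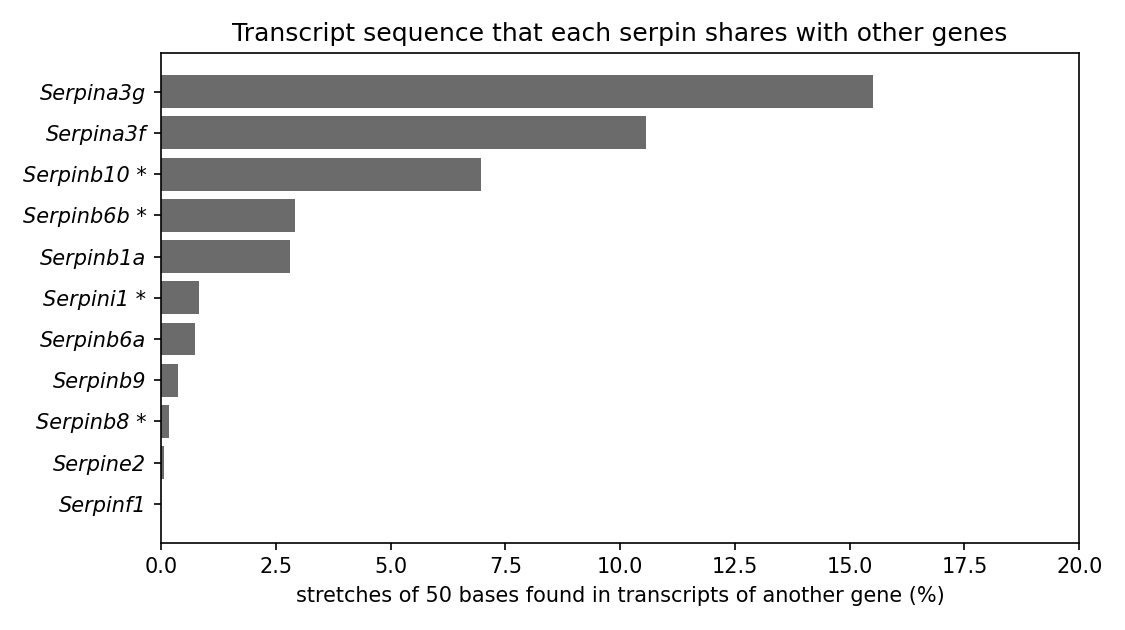
Share of all 50-base stretches in the annotated transcripts of each listed serpin that also occur in transcripts of another gene (horizontal axis, percent), with genes outside the 9 named symbols marked by an asterisk. Serpina3g (15.5%) and Serpina3f (10.6%) share the most, and Serpinf1 shares none.

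Of the 7 listed members, Serpinf1 and Serpina3f fell with NrasG12D (adjusted p under 0.05 by limma over all 11352 genes), none rose, and 5 did not pass. That rule called 0.872% of all genes lower and 0.255% higher. At an unadjusted p under 0.05, 5 of the 7 were lower, as were 16.5% of all genes. All 7 log2 fold changes were negative, as were those of the other 4 listed serpins, with a median of -0.81 over the 11, where the median over all genes was -0.00 and 50.3% of genes were negative. Every NrasG12D library lay below every Cux1-low library for 5 of the 7 members and for 3 of the other 4 serpins, as it did for 27.0% of all genes. Without NrasG12D replicate 3, limma called 4 of the 7 lower (Serpinf1, Serpina3f, Serpina3g and Serpinb9), beside 19.4% of all genes. In the authors' deposited table, 4 of the 7 members had an adjusted p under 0.05 and were lower, where 9.14% of all genes were. These 4 members were Serpinf1, Serpina3f, Serpina3g and Serpinb9.

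**Figure D2:**
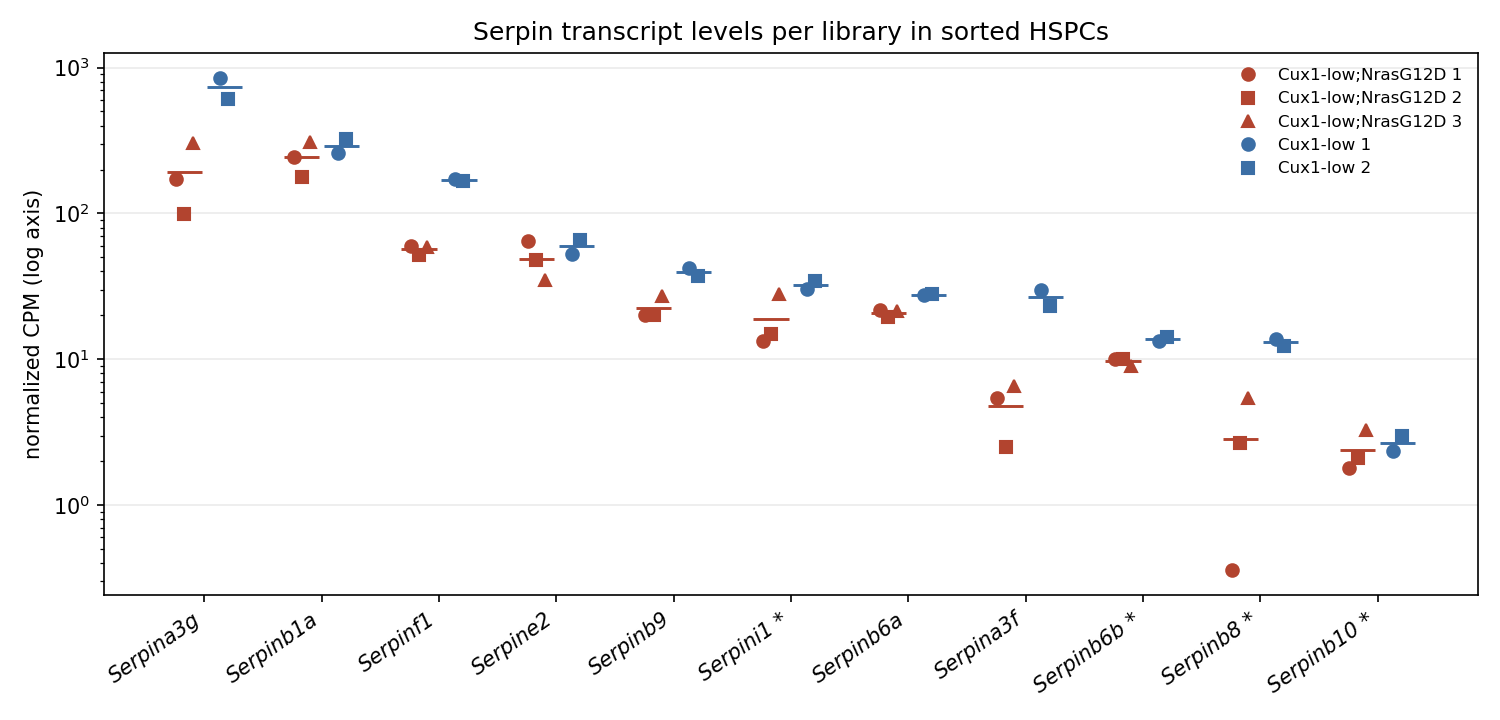
Normalized CPM (vertical log axis) of the 11 listed serpins in each library, NrasG12D libraries in red on the left and Cux1-low libraries in blue on the right of each gene, with symbols for replicates, horizontal lines for group means and asterisks for genes outside the 9 named symbols. Serpinf1 (51.8 to 59.96 against 166 to 172) and Serpina3f (2.51 to 6.56 against 23.2 to 30.0) separate the groups widely, while Serpinb1a, Serpine2 and Serpinb10 overlap.

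Serpinf1 encodes pigment epithelium-derived factor, a secreted serpin that inhibits no protease and is known as an inhibitor of vessel growth. Its gene lies at chr11:75409769-75422701 on the minus strand. Serpinf1 was at 59.96, 51.8 and 58.6 normalized CPM in the NrasG12D libraries, against 172 and 166 in the Cux1-low libraries. The groups did not overlap, and the lowest Cux1-low library was 2.77-fold above the highest NrasG12D library. Its mean was 56.8 ± 4.37 (SD, n = 3) in NrasG12D libraries and 169 ± 3.73 (SD, n = 2) in Cux1-low libraries, 2.98-fold lower with NrasG12D, a log2 fold change of -1.56 (SE 0.11, adjusted p = 0.00613 by limma). By its p-value it ranked 5 among the 11352 genes, as it did in the authors' deposited table (log2 fold change -1.57, adjusted p = 3.54e-25).

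For Serpinf1, NrasG12D replicate 3 lay with the other NrasG12D libraries. Scaled in log2 so that Cux1-low libraries average 0 and NrasG12D replicates 1 and 2 average 1, its position was 0.95. Without replicate 3, Serpinf1 had a log2 fold change of -1.58. The call was lost without Cux1-low replicate 1 (adjusted p = 0.168), without Cux1-low replicate 2 (adjusted p = 0.195) and without NrasG12D replicate 1 (adjusted p = 0.0634), with values of 2.98e-08 to 0.195 over 16 alternatives, and each log2 fold change stayed between -1.62 and -1.50. A fit with 1 library left in a group assumes that this library varies like the others. The lowest adjusted p quoted over the alternatives, for this and the other serpins, came from the fit with a replicate block. That fit assumes that the replicate numbers pair libraries, which the labels do not state.

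Serpina3g and Serpina3f are mouse relatives of human antichymotrypsin. Serpina3g, known in mice as Spi2A, acts inside the cell on lysosomal cathepsins. Serpina3g had 171, 98.5 and 304 normalized CPM in the NrasG12D libraries, against 854 and 613 in the Cux1-low libraries. Every NrasG12D library was below both Cux1-low libraries, with replicate 2 the lowest and replicate 3 the highest of the 3. Its mean was 191 ± 104 (SD, n = 3) in NrasG12D libraries and 733 ± 170 (SD, n = 2) in Cux1-low libraries, 3.83-fold lower with NrasG12D. The log2 fold change was -2.06 (SE 0.42) and did not pass (adjusted p = 0.0611 by limma). It passed without NrasG12D replicate 3 (adjusted p = 0.00208, with values of 3.91e-12 to 0.400 over 16 alternatives).

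Serpina3f had 5.39, 2.51 and 6.56 normalized CPM in the NrasG12D libraries, against 30.0 and 23.2 in the Cux1-low libraries. These values rested on 105, 44 and 108 reads, against 611 and 482. The counting interval of the lowest, NrasG12D replicate 2, ran from 1.82 to 3.37 normalized CPM (exact Poisson, 95%, covering counting error only), so counting error is small beside the distance between the groups. Serpina3f was 5.51-fold lower with NrasG12D (mean 4.82 ± 2.08, SD, n = 3, against 26.6 ± 4.77, SD, n = 2), which on the log2 scale is -2.31 (SE 0.34, adjusted p = 0.0430 by limma) on the log2(value + 1) scale, which understates changes at this level. Among all genes it had rank 12 from the most negative log2 fold change. Its call was lost without Cux1-low replicate 1 (adjusted p = 0.365), without Cux1-low replicate 2 (adjusted p = 0.328), without NrasG12D replicate 1 (adjusted p = 0.172) and with a pseudocount of 0.1 (adjusted p = 0.0530), with values of 1.87e-08 to 0.365 over 16 alternatives.

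Both Serpina3 genes followed the same order of libraries, with Cux1-low replicate 1 highest and NrasG12D replicate 2 lowest, and among the 7 members they were the pair with the smallest distance between centred log2 profiles (root mean square 0.24). The level of Serpina3g was 31.7, 39.2 and 46.4 times that of Serpina3f in the NrasG12D libraries, against 28.5 and 26.4 times in the Cux1-low libraries. The sum of both was 176, 101 and 311 normalized CPM in the NrasG12D libraries and 884 and 636 in the Cux1-low libraries. Reads exchanged between these 2 copies would therefore not change which group was lower in the sum. Of the stretches in Serpina3g transcripts compared above, 6.29% also occur in transcripts of Serpina3f, the far less abundant copy. Whether reads of Serpina3g make up part of the Serpina3f values, and so of its call and library order, was not tested. Exchange with copies outside the listed genes was not tested.

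Interferons act through STAT factors, whose sites at promoters have known core letters, and Serpina3g is known as interferon-inducible in mouse cells. RefSeq promoter windows of GRCm38.p6, from 250 bases before to 50 after an annotated start, were therefore searched on both strands for the GAS letters TTCNNNGAA and the ISRE letters GAAA, any 2 bases and GAAA, which do not overlap in the windows printed. Windows were found for 6 of the 7 members. The 3 windows shown are those of the members with the letters and the most negative log2 fold changes, with matches in capitals (GAS for both Serpina3 genes, ISRE, read on the opposite strand, for Serpinb9).
Serpina3f, chr12:104214294-104214593, plus strand: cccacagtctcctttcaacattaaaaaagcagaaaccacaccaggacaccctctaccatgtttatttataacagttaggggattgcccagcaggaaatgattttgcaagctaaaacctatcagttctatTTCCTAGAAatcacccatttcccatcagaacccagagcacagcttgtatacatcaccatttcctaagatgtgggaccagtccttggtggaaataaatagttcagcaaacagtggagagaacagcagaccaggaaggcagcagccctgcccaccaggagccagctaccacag
Serpina3g, chr12:104235897-104236196, plus strand: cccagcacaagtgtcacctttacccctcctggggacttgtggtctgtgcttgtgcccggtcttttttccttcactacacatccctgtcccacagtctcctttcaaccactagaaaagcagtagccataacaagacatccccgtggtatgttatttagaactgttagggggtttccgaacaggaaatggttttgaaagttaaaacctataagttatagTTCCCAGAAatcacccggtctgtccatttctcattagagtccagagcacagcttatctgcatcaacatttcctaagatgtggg
Serpinb9, chr13:33004291-33004590, plus strand: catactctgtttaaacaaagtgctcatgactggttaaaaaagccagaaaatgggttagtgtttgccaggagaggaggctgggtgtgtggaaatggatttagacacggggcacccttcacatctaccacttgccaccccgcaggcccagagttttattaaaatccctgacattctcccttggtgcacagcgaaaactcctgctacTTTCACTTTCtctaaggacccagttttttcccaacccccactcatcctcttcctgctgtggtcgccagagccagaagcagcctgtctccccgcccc

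The GAS letters begin 121 bases before the annotated start of Serpina3f and 33 bases before that of Serpina3g, and the ISRE letters begin 46 bases before that of Serpinb9. The GAS letters occur in 8.30% and the ISRE letters in 3.44% of the 32851 windows in the RefSeq table. A window of Serpinb6a also holds both sets of letters, while those of Serpinf1 and Serpine2 hold neither. A match describes the letters in these windows only.

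The clade B members are intracellular. Serpinb9, known in mice as Spi6, inhibits granzyme B of cytotoxic cells. Serpinb9 had 20.1, 20.03 and 27.3 normalized CPM in the NrasG12D libraries, against 42.2 and 37.2 in the Cux1-low libraries. The groups did not overlap, and replicate 3 was the NrasG12D library nearest to the Cux1-low values. The mean was 22.5 ± 4.16 (SD, n = 3) in NrasG12D libraries and 39.7 ± 3.50 (SD, n = 2) in Cux1-low libraries, a log2 fold change of -0.81 (SE 0.18, adjusted p = 0.0692 by limma) that did not pass. It passed without NrasG12D replicate 3 (adjusted p = 0.00410, with values of 0.000326 to 0.406 over 16 alternatives).

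Serpinb6a, whose human counterpart inhibits cathepsin G, had 21.9, 19.4 and 21.3 normalized CPM in the NrasG12D libraries, against 27.5 and 27.9 in the Cux1-low libraries. The groups did not overlap, but the difference was small, with means of 20.9 ± 1.30 (SD, n = 3) and 27.7 ± 0.261 (SD, n = 2) and a log2 fold change of -0.39 (SE 0.14, adjusted p = 0.120 by limma). Serpinb1a, which inhibits the neutrophil proteases elastase, cathepsin G and proteinase 3, had 243, 177 and 310 normalized CPM in the NrasG12D libraries, against 258 and 322 in the Cux1-low libraries. The groups overlapped, since NrasG12D replicate 3 exceeded Cux1-low replicate 1, and the log2 fold change was -0.28 (SE 0.23, adjusted p = 0.424 by limma). Without NrasG12D replicate 3 it was -0.47 (adjusted p = 0.0713) and without NrasG12D replicate 2 -0.07, with adjusted p values of 0.0190 to 0.850 over 16 alternatives.

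Serpine2, or protease nexin 1, is a secreted inhibitor of thrombin and of plasminogen activators. Serpine2 had 64.6, 47.8 and 34.8 normalized CPM in the NrasG12D libraries, against 52.6 and 66.1 in the Cux1-low libraries. The groups overlapped, and among the 7 members it was the only one whose lowest library was NrasG12D replicate 3. Its log2 fold change of -0.31 (SE 0.25, adjusted p = 0.429 by limma) did not pass. It was -0.09 without NrasG12D replicate 3, -0.52 without NrasG12D replicate 1 and -0.47 without Cux1-low replicate 1, and it passed under none of the 16 alternatives.

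**Figure D3:**
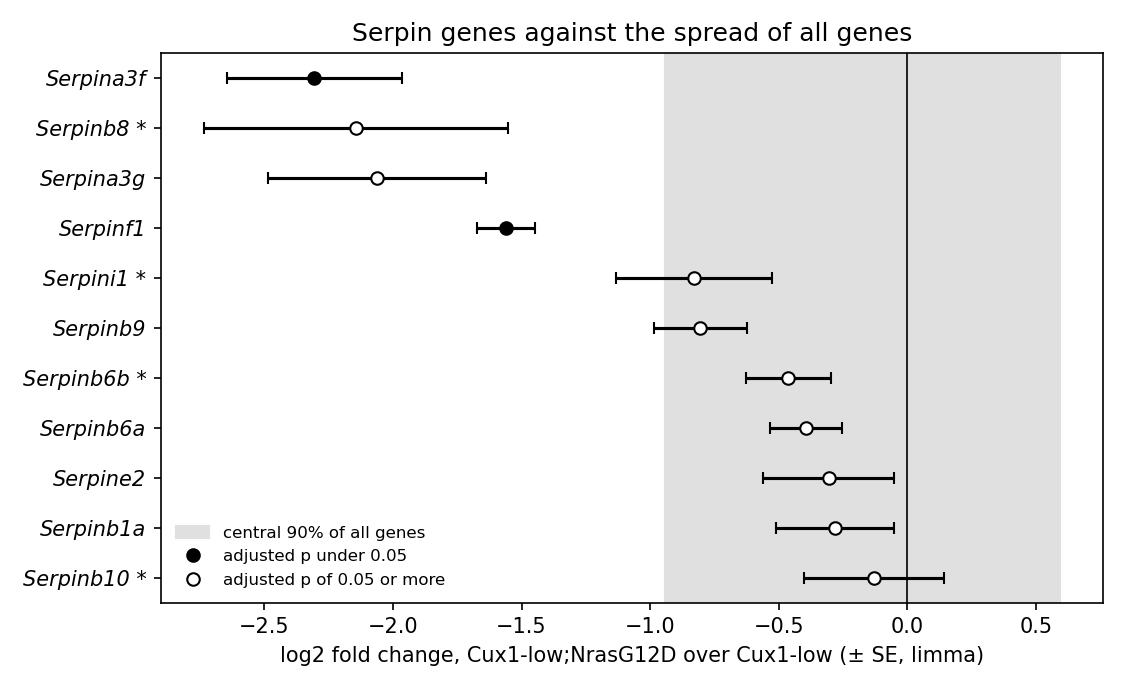
Log2 fold change of each listed serpin, NrasG12D over Cux1-low, on the log2(value + 1) scale (horizontal axis), with bars for the SE from limma, filled points for an adjusted p under 0.05 asterisks for genes outside the 9 named symbols and a grey band for the central 90% of all genes (-0.94 to 0.59). Serpina3f and Serpinf1 are filled, all 11 points lie left of 0, and those of 7 lie within the band.

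The other 4 listed serpins did not pass over all 5 libraries. Serpinb8, whose human counterpart inhibits the convertase furin, had 0.359, 2.68 and 5.47 normalized CPM in the NrasG12D libraries, against 13.8 and 12.4 in the Cux1-low libraries. The lowest value rested on 7 reads, with an exact Poisson 95% interval of 0.144 to 0.740 normalized CPM, and the NrasG12D libraries spread widely below the Cux1-low values (log2 fold change -2.14, SE 0.59, adjusted p = 0.0838 by limma). It passed without NrasG12D replicate 3 (-2.65, adjusted p = 0.00605 by limma) and was -1.53 without replicate 1, with adjusted p values of 3.25e-07 to 0.418 over the alternatives. In the authors' deposited table the adjusted p of Serpinb8 was 0.0482. Serpini1, the neuroserpin gene, had 13.4, 14.9 and 27.9 normalized CPM in the NrasG12D libraries, against 30.3 and 34.6 in the Cux1-low libraries, with replicate 3 close to the Cux1-low level. Its log2 fold change was -0.83 (SE 0.30, adjusted p = 0.125 by limma), and it passed without replicate 3 (-1.14, adjusted p = 0.00327, with values of 6.43e-05 to 0.422 over the alternatives). Serpinb6b, a close relative of Serpinb6a, had 10.1, 10.1 and 9.05 normalized CPM in the NrasG12D libraries, against 13.3 and 14.3 in the Cux1-low libraries. Its groups did not overlap, with a log2 fold change of -0.46 (SE 0.17, adjusted p = 0.122 by limma), similar in size to that of Serpinb6a. Serpinb10, known as bomapin and described in myeloid cells, had 1.80, 2.11 and 3.28 normalized CPM in the NrasG12D libraries, against 2.35 and 2.98 in the Cux1-low libraries, and its groups overlapped.

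Per kilobase of annotated exon, the order of the abundant serpins differed between the groups. In the NrasG12D libraries Serpinb1a averaged 106 ± 28.8 (SD, n = 3) and Serpina3g 90.9 ± 49.6 normalized CPM per kilobase, and their ranges overlapped. In the Cux1-low libraries Serpina3g came first at 348 ± 80.9 (SD, n = 2), with Serpinb1a next at 126 ± 19.6, and the ranges did not overlap. Serpinf1 came next in both groups, at 24.1 ± 1.85 in NrasG12D libraries and 71.6 ± 1.58 in Cux1-low libraries, apart from its neighbours in each. Serpina3f had place 9 of 11 at 2.10 ± 0.910 in NrasG12D libraries, apart from Serpinb10 below it but overlapping Serpini1 above it. In the Cux1-low libraries it had place 4 at 11.6 ± 2.08, overlapping Serpinb9 at 11.4 ± 1.002. From Serpinb9 down to Serpina3f, each neighbouring pair overlapped in the NrasG12D libraries. Exonic lengths are unions over the annotated transcripts, retained introns included.

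The genes with the most similar profiles were found by the root mean square distance between centred log2(value + 1) values over the 5 libraries. For Serpinf1 these were Gbp9 (distance 0.07) and Aph1c (0.10), for Serpina3f Myo5c (0.17) and Raver2 (0.18), and for Serpina3g Spo11 (0.17) and Cadps2 (0.17). Serpinb9 was nearest to Zfp516 (0.0046) and Ccser2 (0.03), Serpinb6a to Zfyve27 (0.02) and Fbxo6 (0.03), Serpinb1a to Tmem184b (0.02) and Slc17a9 (0.04), and Serpine2 to Depdc7 (0.07) and Dtd2 (0.08). Some of these genes lie at low levels. Gbp9 had 2.26, 1.48 and 1.76 normalized CPM in the NrasG12D libraries, against 7.35 and 6.88 in the Cux1-low libraries. Aph1c had 1.95, 1.48 and 2.07 against 7.06 and 6.02. At such levels log2(value + 1) understates changes, so a small distance does not mean an equal fold change. All profiles come from the same 5 libraries.

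Genes of several protease groups were set beside the serpins, and these lists were not limited to known serpin targets. The list of serine proteases of neutrophils and granzymes also held Mcpt8 and Cela1. Of its 7 measured genes, none passed limma's test and 6 had a positive log2 fold change, with a median of 0.44. The only granzyme gene measured, Gzmb, was the exception (log2 fold change -0.0073). It had 5.39, 4.79 and 8.81 normalized CPM in the NrasG12D libraries, against 8.73 and 4.28 in the Cux1-low libraries. At an unadjusted p under 0.05 the list had 1 gene, Cela1, and 31.4% of all genes met that rule. Ctsg, which encodes the cathepsin G of neutrophil granules, had 625, 405 and 302 normalized CPM in the NrasG12D libraries, against 276 and 340 in the Cux1-low libraries, and the groups overlapped. The pancreatic elastase gene Cela1 had 84.3, 116 and 59.7 against 31.3 and 36.4 (log2 fold change 1.28, SE 0.26, adjusted p = 0.0601 by limma). The sums over this list were 1350 to 3553 normalized CPM in NrasG12D libraries and 1504 to 1895 in Cux1-low libraries, with NrasG12D replicate 3 the lowest. Of 14 lysosomal protease genes (cathepsins with Lgmn and Dpp7), none passed, 2 had an unadjusted p under 0.05, and the median was 0.10. Ctsf, a cysteine cathepsin gene, had 15.2, 15.1 and 25.8 against 49.6 and 53.3 (adjusted p = 0.0508 by limma), and Ctsl, the cathepsin L gene, 56.8, 70.4 and 52.2 against 44.3 and 44.1. Of 9 caspase genes, 8 had a negative log2 fold change with a median of -0.20, none passed, and 3 had an unadjusted p under 0.05, a share near that of all genes. The inflammatory caspase genes Casp1 and Casp4 had log2 fold changes of -0.64 (SE 0.18) and -0.73 (SE 0.19).

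Of 14 measured genes of plasminogen activation and coagulation, F2rl2, a receptor of the protease-activated family, fell and 13 did not pass, with a median of -0.36. F2rl2 had 11.7, 16.4 and 12.7 normalized CPM in the NrasG12D libraries, against 32.7 and 29.6 in the Cux1-low libraries (log2 fold change -1.15, adjusted p = 0.0472 by limma). The gene of coagulation factor V, F5, had 4.05, 3.77 and 6.93 against 18.7 and 11.1. Of 9 complement genes, C1rl fell, with 7.64, 7.30 and 8.26 against 18.6 and 19.1 (log2 fold change -1.18, adjusted p = 0.0411 by limma), and 8 did not pass, among them C1ra, which encodes a C1 protease that the C1 inhibitor blocks (6.46, 4.05 and 6.08 against 12.1 and 12.4). Of 15 genes of collagen making, none passed, 5 had an unadjusted p under 0.05, again a share near that of all genes, and the median was -0.04. The basement membrane collagen genes Col4a1 and Col4a2 had log2 fold changes of -2.54 (SE 0.53) and -2.88 (SE 0.63), with NrasG12D replicate 3 at 26.003 and 28.1 normalized CPM, above the other NrasG12D libraries. The collagen gene Col5a1 went the other way, with 49.3, 109 and 38.2 against 19.0 and 16.1 (log2 fold change 1.70, SE 0.40). In this list 8 log2 fold changes were negative and 7 positive.

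Other protease inhibitors were described in the same way. Of 11 measured, Timp2, a tissue inhibitor of metalloproteinases, fell and 10 did not pass, with a median of -0.23. Timp2 had 23.0, 22.1 and 31.0 normalized CPM in the NrasG12D libraries, against 81.3 and 79.7 in the Cux1-low libraries (log2 fold change -1.64, SE 0.17, adjusted p = 0.0260 by limma). Its relative Timp3 had 9.54, 13.2 and 12.03 against 28.8 and 22.1 (log2 fold change -1.07, adjusted p = 0.0553 by limma). Of 34 interferon response genes, 6 fell, none rose and 28 did not pass, with a median of -0.61. Those that fell include the interferon-induced GTPase genes Iigp1 (15.6, 9.59 and 13.9 against 71.7 and 44.7) and Irgm2 (13.5, 12.4 and 19.4 against 53.5 and 41.3), and Oasl2 (7.44, 7.53 and 10.3 against 28.1 and 26.1). The interferon list summed to 3585 to 4355 normalized CPM in NrasG12D libraries and 5203 to 5831 in Cux1-low libraries, and its part in the serpin values was not tested. Of 17 heat shock factor targets, Hspa1a, Hspa1b and Hsp90aa1 rose and 14 did not pass, with a median of 0.44. None of these lists was tested as a list, and the calls are to be read against the 0.872% of all genes lower and 0.255% higher.

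Leaving out NrasG12D replicate 3 changed these counts, in a fit that called 19.4% of all genes lower and 18.0% higher. Of the interferon response genes 19 were then called lower and 3 higher, and of the heat shock factor targets 0 lower and 13 higher. The other protease inhibitors had 5 lower and 1 higher, the plasminogen and coagulation genes 6 and 1, the complement genes 2 and 3, and the genes of collagen making 4 and 2. The serine proteases of neutrophils and granzymes, with Mcpt8 and Cela1, had 0 lower and 3 higher. The cathepsins with Lgmn and Dpp7 had 2 and 4, and the caspases 4 and 1.

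**Figure D4:**
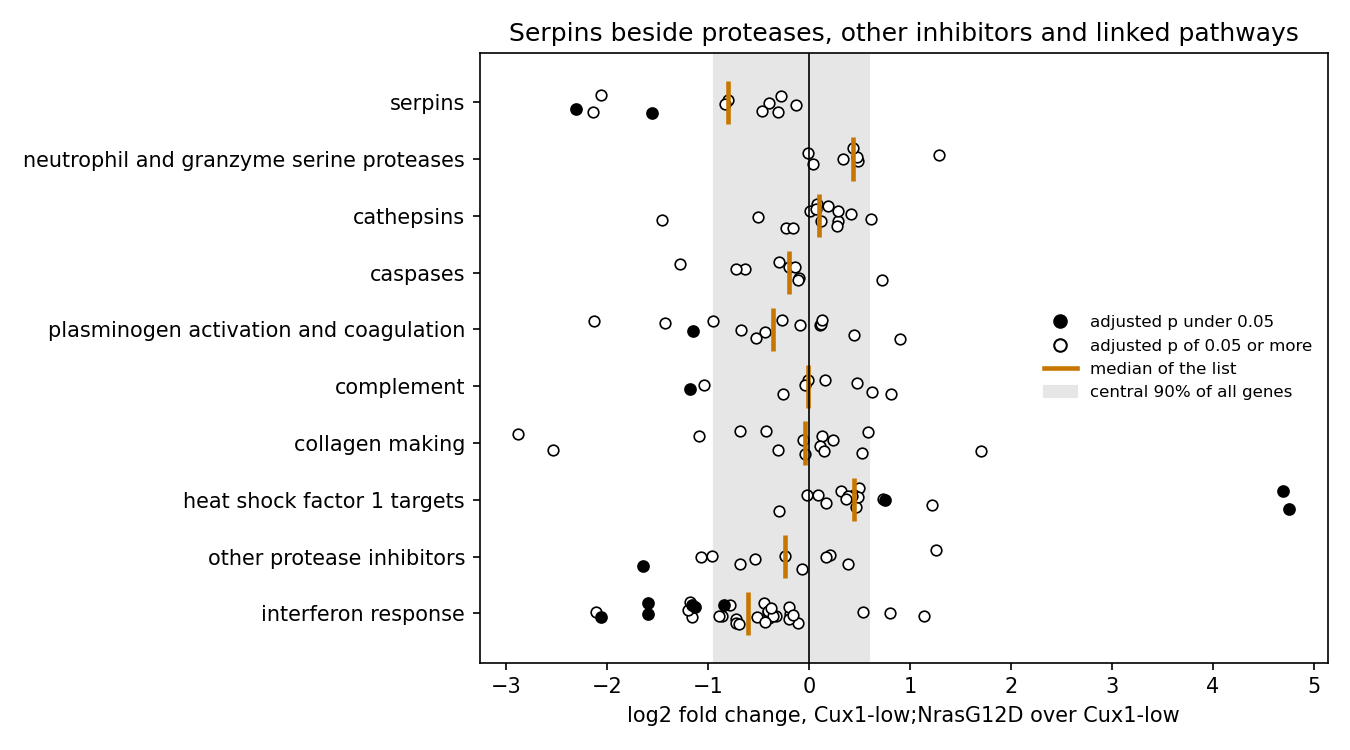
Log2 fold changes, NrasG12D over Cux1-low, of the 11 listed serpins (top) and of the measured members of 9 further lists, with filled points for an adjusted p under 0.05, orange lines for list medians and a grey band for the central 90% of all genes. Among the lists drawn, the serpin median (-0.81) lies furthest left, next to that of the interferon response genes (-0.61). The named members and the lists were chosen with earlier results of these data known, so this order is only a description. Cell marker lists are not drawn, and the median of the HSC markers was lower (-1.17). The serine protease, cathepsin (with Lgmn and Dpp7) and caspase lists hold no filled point.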

How the data were processed

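RNA had been isolated with Trizol from sorted mouse HSPCs, and polyA libraries had been made with an Illumina TruSeq v2 kit, per the labels' protocols. TopHat, HTSeq, edgeR, hg19 and mm10 are named, with no version or order, per the submitters' processing notes. The deposited signal values are headed CPM, per the file headers, but their columns sum to 971746 to 1026780, so they had been rescaled. The authors' deposited table also gives each gene's log2 fold change, its likelihood ratio score and its p-value, raw and adjusted.

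Every value was a whole multiple of the value of 1 read (tolerance 0.001 of a step) and reads were recovered from it for counting intervals only. No count test was run, since the deposited values are not counts. The fit was limma 3.58.1 (R 4.3.3) with a trended variance on log2(normalized CPM + 1), 3 against 2 libraries, 2-sided, without a block, with Benjamini-Hochberg adjustment over 11352 genes and a threshold of 0.05. A filter of at least 1 in at least 2 libraries removed 0 genes. The script was tested on simulated data. The members, the 19 gene lists and the rule for named genes were chosen with earlier results of these data known. That rule names all listed serpins, up to 3 called members of each list (otherwise the 2 with the smallest p) and the 2 nearest profiles per member. Cell marker lists are given by sums, counts and calls. Alternatives were other pseudocounts, filters, variance models and scalings, each library left out, and a block. Python 3.11.15 with pandas 2.3.3 was used for the rest.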

Additional observations from a re-analysis of the deposited data

How the results depend on the processing

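The alternatives were 16, and all 175 log2 fold changes of the 11 serpins under them were negative (Serpinb10 has none with a filter on a mean of 5). Many of these values were fixed in advance. Other filters, a fit without the variance trend and a robust variance leave each log2 fold change as in the main fit. The fit with no filter repeats the main fit, since the filter removed 0 genes. Of these, 153 kept their side of the threshold, 7 lost a call and 15 gained one. The count of members called, 2, was 1 with a pseudocount of 0.1, 5 with library weights, 5 with a replicate block, and 0 to 4 with a library left out. The count over all genes, 128, was 215 with a pseudocount of 2, 213 with columns rescaled to equal sums, 5070 with library weights, 4163 with a replicate block, and 3 to 4243 with a library left out. The count over the genes of the 19 lists, 15, was 143 with library weights, 25 with columns rescaled to equal sums, 23 with equal medians, 144 with a replicate block, and 2 to 133 with a library left out. The replicate numbers are not stated to pair libraries, and the differences between replicates 1 and 2 correlated between the groups with r = -0.12 over 11352 genes. In the block fit NrasG12D replicate 3 has no partner, so its log2 fold changes equal those without that library. Of 304 list medians, 16 moved by more than the spread between replicates. Serpins below about 1 normalized CPM in most libraries are not covered by the table, and neither called member kept its call without either Cux1-low library.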
